A study of Mus musculus with 8 samples.

Results

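Molecular chaperones bind unfolded proteins and help them fold, assemble or reach the machinery that degrades them. HSP70 proteins work in cycles of ATP use that J-domain proteins (DNAJ) start and exchange factors such as the HSP110 proteins reset. HSP90 acts late on signalling clients, and the barrel-shaped CCT complex encloses actin and tubulin. N6-methyladenosine (m6A) is a methyl mark on RNA, and m6A in the 5′ UTR of the inducible HSP70 messenger has been reported to help its translation after heat shock. Stellate cells secrete collagen in large amounts once activated, which loads the folding capacity of the endoplasmic reticulum (ER).

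Chaperone transcripts were taken by gene name as every peak of a gene whose symbol begins with Hsp followed by a, b, d, e, h or a digit, with Dnaj, or with Cct followed by a digit. Hspg2 and Hspbap genes were left out. This gave 103 of the 15106 peaks in the deposited lists. The control list held 48 of them in 33 genes and the cKO list 55 in 38 genes, together 47 of the 6487 genes with a peak. RefSeq names 82 protein-coding chaperone genes under the same rule, and 46 of them (56.1%) had a peak in at least 1 list, against 26.8% of all 21900 RefSeq coding genes. The remaining member is the processed pseudogene Dnajc19-ps.

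The study took hepatic stellate cells from C57BL/6J mice and cultured them for 7 days, and culture activates such cells. Control mice carry the genotype label WT, and cKO mice are labelled as a stellate-cell-specific knockout of Mettl3, the catalytic subunit of the m6A methyltransferase. The labels used here do not give the Cre driver, the age of the animals or whether cells of several animals were pooled. For each genotype there were 2 libraries of RNA precipitated with an antibody against m6A and 2 of input RNA, which the authors turned into 1 peak list per genotype. The lists give no value per replicate, so no difference between genotypes has a replicate error and no test was possible. The 95% intervals given for shares are exact (Clopper-Pearson) and cover the error of counting alone. Read depth is unknown. The lists also hold no RNA level, of Mettl3 or of any other transcript, so a lost mark and a scarcer transcript cannot be told apart where a peak is missing from a list. All 15 stellate and myofibroblast markers examined had a peak in at least 1 list, as did 0 of 7 hepatocyte markers, 2 of 6 macrophage markers, 4 of 6 endothelial markers and 1 of 4 bile duct markers. The endothelial markers Pecam1, Cdh5 and Lyve1 had peaks in both lists, while Stab1 and Stab2, and the Kupffer cell markers Adgre1 and Clec4f, had none. The part of such cells in the chaperone results was not tested.

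Most chaperone genes with an m6A peak in control cells also had one in cKO cells. Of 33 such genes, 24 had a cKO peak (72.7%, 54.5 to 86.7), and the background over all genes with a control peak was 56.1%, within that interval. The control list alone held 9 of the 47 chaperone genes (19.1%, 9.15 to 33.3), against 33.7% of all genes with a peak. Another 14 were in the cKO list alone (29.8%, 17.3 to 44.9), against 23.1%. The cKO list was shorter than the control list over all genes, 6709 peaks against 8397, but longer for chaperones, 55 against 48. That order turned under either limit on peaks. At fold 10 or more there were 31 cKO and 36 control chaperone peaks, and at p 1e-10 or less 26 and 30. Chaperone genes in the cKO list alone were then 31.7% (13 of 41) under the limit on fold, beside 22.2% of all genes. Under the limit on p they were 17.9% (5 of 28), beside 24.2%. When only peaks of fold 10 or more were kept in each list, the share of control genes also in the cKO list was 46.4% (13 of 28), beside 45.8% over all genes. With only peaks of p 1e-10 or less it was 65.2% (15 of 23), beside 46.4% over all genes. The chaperone share was thus near the background under the limit on fold. Under the limit on p it was the higher number, but on 23 genes and with no interval computed.

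Chaperone sites of the control list were also overlapped more often than that list as a whole, chiefly those of Hsp genes. Peaks counted as overlapping where their exon blocks shared at least 1 base on the same strand. Of 48 control chaperone peaks, 26 were overlapped by a cKO peak (54.2%, 39.2 to 68.6), against 33.7% of all control peaks. By gene name, 13 of 17 Hsp peaks, 12 of 29 Dnaj peaks and 1 of 2 CCT peaks of the control list were overlapped. In the other direction 26 of 55 cKO peaks were overlapped (47.3%, 33.7 to 61.2), and the background of 41.8% lay inside this interval. The 26 pairs lay in 20 genes, and 1 control peak met 1 cKO peak in every pair. Shared sequence covered a median of 95.5% of the control peak and 89.6% of the cKO peak. In 3 pairs, in Dnajc10, Dnajc8 and Hspa9, every block had the same bounds in both lists. With peaks under fold 10 left out, the control share was 30.6% (11 of 36) beside 26.2% for all peaks. With only peaks of p 1e-10 or less it was 56.7% (17 of 30) beside 33.6%.

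Fold enrichment is the authors' value for each peak and is read here as precipitated over input RNA. Since its scale need not be shared by the lists, each fold was also placed as a percentile among all folds of its own list. Chaperone peaks had a median fold of 22.6 in the control list, with quartiles of 10.0 and 70.4, and a median percentile of 55.6 (34.9 to 71.2). In the cKO list the median fold was 11.4, with quartiles of 6.77 and 20.9, and the median percentile 42.3 (31.4 to 57.4). Both percentile intervals include 50. Peaks of all genes also had a lower median fold in cKO, 13.2 beside 19.3 for control. Of the 26 pairs, 13 stood at a higher percentile in the control list and 13 at a higher one in the cKO list. Across all 3015 overlapping pairs of the lists, 48.7% stood higher in the control list.

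**Figure D1:**
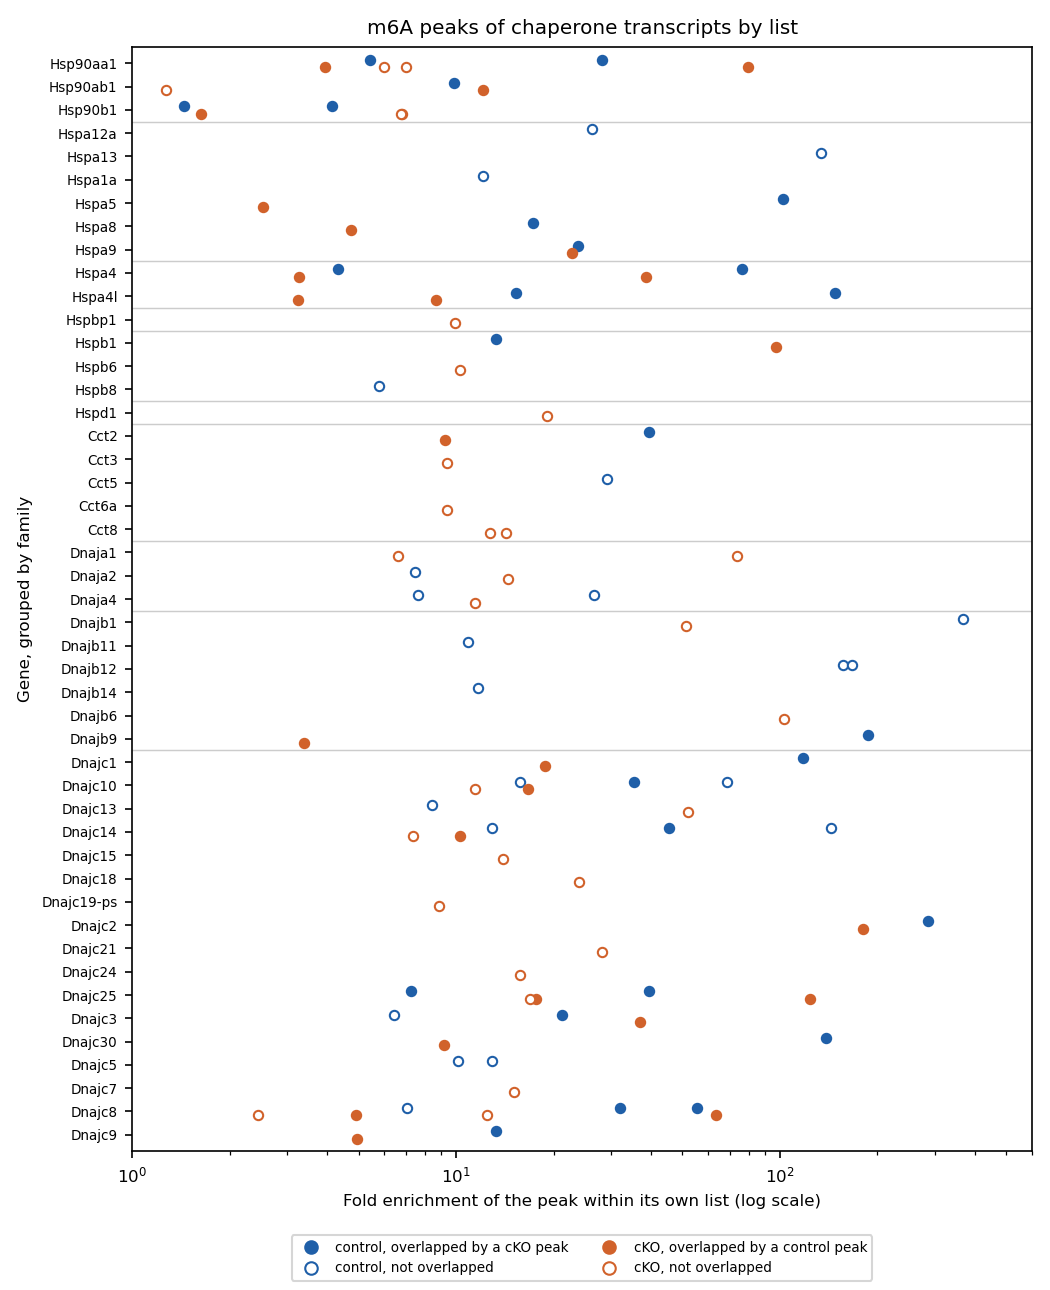
Fold enrichment (log axis) of each of the 103 chaperone peaks, by gene and family, in the control list (blue) and the cKO list (orange); filled points overlap a peak of the other list. All control peaks of the HSP90 (5) and HSP110 (4) families are filled, while those of the DNAJA family (3) are all open. In the whole control list 33.7% of peaks were overlapped.

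The HSP90 genes carried peaks in both genotypes at 5 shared sites, with folds from 1.44 to 79.8. A control counterpart was present for 5 of their 9 cKO peaks, beside 41.8% of the whole cKO list, and absent for 4. Hsp90aa1, the stress-inducible cytosolic form, had control peaks of fold 28.2 and 5.43, and both met cKO peaks, of fold 79.8 and 3.94. The stronger site ran through 4 exon blocks of coding sequence in control (chr12:110693833-110695060, minus strand) and 5 in cKO (chr12:110693438-110695179). The cKO list held further Hsp90aa1 peaks of fold 6.99 in the 3′ UTR and 6.01 in coding sequence. Hsp90ab1, the constitutive cytosolic form, had 1 control peak of fold 9.82, which met a cKO peak of fold 12.1, and another cKO peak of fold 1.27. Hsp90b1 encodes GRP94, the HSP90 of the ER. Its control peaks, of fold 4.14 and 1.44, met cKO peaks of fold 6.80 and 1.63, and a further cKO peak had fold 6.74. That further peak overlaps a cKO peak of Gm15344 on the same strand, so its gene is uncertain.

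In all 5 HSP90 pairs, which lie in 3 genes, the cKO peak stood at the higher percentile of its list. For the stronger Hsp90aa1 site these were 62.5 in control and 93.7 in cKO, and for Hsp90ab1 23.2 and 45.3. The weaker Hsp90aa1 site differed little, at 5.08 and 6.88, and its fold was lower in cKO (5.43 and 3.94). The Hsp90b1 sites stood at 3.20 and 16.9, and at 0.0417 and 0.343, so the weakest of them ranked near the foot of both lists. The p of these peaks was nonetheless very small. The log10 p of the Hsp90ab1 pair was -1680 in control and -5080 in cKO, and that of the weakest Hsp90b1 pair -17.1 and -88.8.

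A low fold with a very small p was frequent among chaperones. Of 12 control chaperone peaks under fold 10, 6 had a p of 1e-10 or less (interval 21.1% to 78.9%), against 15.4% of the 1955 such peaks in the whole list. In the cKO list it was 11 of 24 (45.8%, 25.6 to 67.2), against 21.8% of 2429. HSP90 genes supplied 4 of the control peaks and 5 of the cKO peaks of this kind. The others were in Hspa4 and Hspb8 in control, and in Hspa4, Hspa4l, Hspa5, Hspa8, Cct2 and Dnajc8 in cKO.

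Of 6 HSP70 genes with a peak, 3 had peaks that overlapped between the genotypes and 3 were found in control only. Both HSP110 genes with a peak were in both lists. Over all genes with a peak, 43.1% were in both lists and 33.7% in the control list alone. Hspa5 encodes BiP, the HSP70 of the ER lumen. Its coding sequence held 1 control peak of fold 102, from 34775628 to 34776438 on the plus strand of chromosome 2, and 1 cKO peak of fold 2.53 inside it, from 34775928 to 34776168. The cKO peak covered 29.7% of the control peak, and the percentiles were 88.5 and 2.47. Rabepk also spans this position in RefSeq, and whether the libraries kept strand is not given in the sources used here. Hspa8, the constitutive cytosolic HSP70, had peaks of fold 17.3 and 4.73 at nearly the same bounds, at percentiles 46.0 and 8.94. Mitochondrial Hspa9 (mortalin) had a coding peak with identical bounds in both lists, at fold 23.8 and 22.8, and percentiles 57.4 and 70.2.

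The HSP70 genes in the control list alone were Hspa13 (fold 134, coding sequence), a microsomal family member, Hspa12a (26.2, 3′ UTR), a distant relative, and Hspa1a (12.1, coding sequence), the stress-inducible form. Gm41877 also lies at the Hspa12a peak in RefSeq. No Hspa1a peak lay in the 5′ UTR in either list. Its near-identical copy Hspa1b had no peak, and reads of the copies cannot be assigned with certainty. Among HSP110 genes, Hspa4 had sites of fold 76.5 and 4.32 in control that met sites of 38.6 and 3.28 in cKO, at similar percentiles (84.1 and 83.4, then 3.53 and 4.85). Hspa4l had a site of fold 148 in control that met one of 3.24 in cKO, at percentiles 92.5 and 4.77. Its other site had folds of 15.3 and 8.64. Hsph1 had no peak. The HSP70 exchange factor gene Hspbp1 was in the cKO list alone, with a 3′ UTR peak of fold 9.93.

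**Figure D2:**
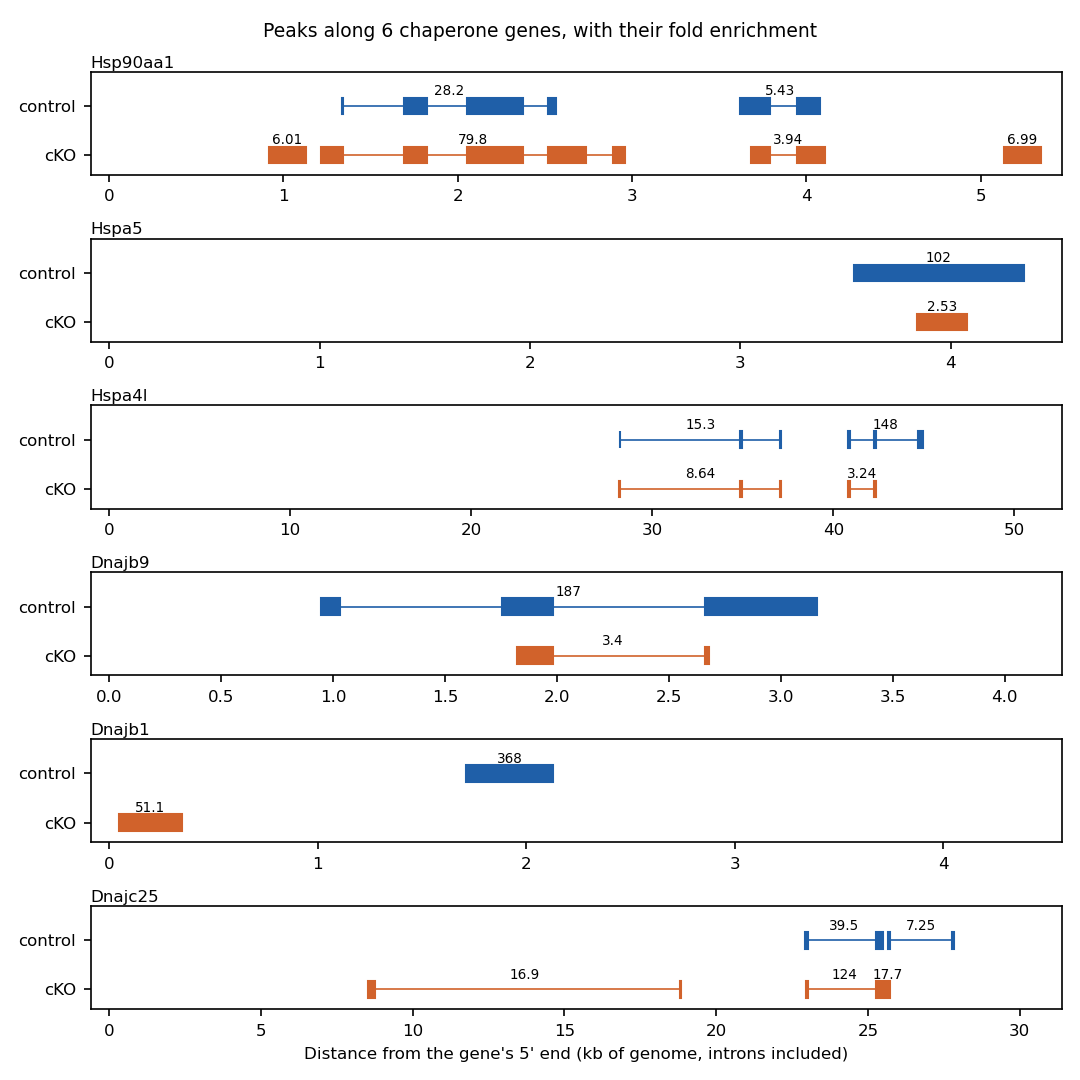
Peaks of 6 chaperone genes along the genome, as kb from the gene's 5′ end in RefSeq, with exon blocks as boxes, thin lines between blocks of 1 peak and the fold above each; control in blue, cKO in orange. In Hspa5, in Dnajb9 and at the Hspa4l site of fold 148 the cKO peak covers part of a wider control peak, and in Dnajb1 the peaks lie apart.

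J-domain genes of the ER ranged from sites ranked high in control and low in cKO to the reverse. Dnajb9 (ERdj4), a BiP partner that restrains the stress sensor IRE1, had a control peak of fold 187 in 3 blocks that met a cKO peak of fold 3.40, at percentiles 94.5 and 5.33. Dnajc3 (p58IPK), a BiP partner, ran the other way at the site it shared, with fold 21.3 in control and 36.9 in cKO and percentiles 53.7 and 82.4. It also had a control 3′ UTR peak of fold 6.44 without a counterpart. Dnajc10 (ERdj5), a disulfide reductase, had 3 control peaks, of fold 68.4, 35.3 and 15.7, of which only the one of 35.3 met a cKO peak (16.7). A further Dnajc10 cKO peak had fold 11.4. Dnajc1 had a site of fold 118 in control and 18.8 in cKO, listed as coding sequence in control and 3′ UTR in cKO. Dnajb11 (ERdj3) was in the control list alone, at fold 10.9. Dnajc25 had sites of fold 39.5 and 7.25 in control that met cKO sites of 124 and 17.7, both at the higher percentile in cKO. The remaining Dnajc25 cKO peak, of fold 16.9, overlaps a peak of Gm20503 on the same strand.

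The promoters of 3 ER chaperone genes held an ER stress element. This motif, bound by ATF6 with NF-Y, reads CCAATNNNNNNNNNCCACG. It was searched on both strands in RefSeq windows (GRCm38.p6) from 250 bases before to 50 after each annotated start. It was found in 39 of 32851 windows (0.119%), or in 37 of 27025 genes (0.137%). Of the 67 chaperone genes with a window it was found in 3, Hspa5, Hsp90b1 and Dnajc3, all with peaks in both lists. Of the 47 chaperone genes with a peak, 37 had a window. Genes without a window were not searched. The sequences are shown because these were the only chaperone windows with a match, with the match in capitals and the gene strand read 5′ to 3′. They lie at chr2:34771995-34772073 (plus), chr14:118937797-118937875 (plus) and chr10:86705503-86705686 (minus), where there were 2 matches.
Hspa5: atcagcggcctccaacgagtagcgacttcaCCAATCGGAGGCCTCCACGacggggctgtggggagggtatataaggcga
Dnajc3: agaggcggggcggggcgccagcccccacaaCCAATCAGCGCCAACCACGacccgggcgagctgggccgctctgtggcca
Hsp90b1: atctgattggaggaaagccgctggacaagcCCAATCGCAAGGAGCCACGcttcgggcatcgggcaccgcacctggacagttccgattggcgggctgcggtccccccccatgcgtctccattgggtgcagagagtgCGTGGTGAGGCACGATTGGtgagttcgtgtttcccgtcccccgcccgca

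The 3 genes with this element differed in how their shared sites ranked. Hspa5 was far lower in the cKO list, while Dnajc3 and both Hsp90b1 sites were higher there.

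**Figure D3:**
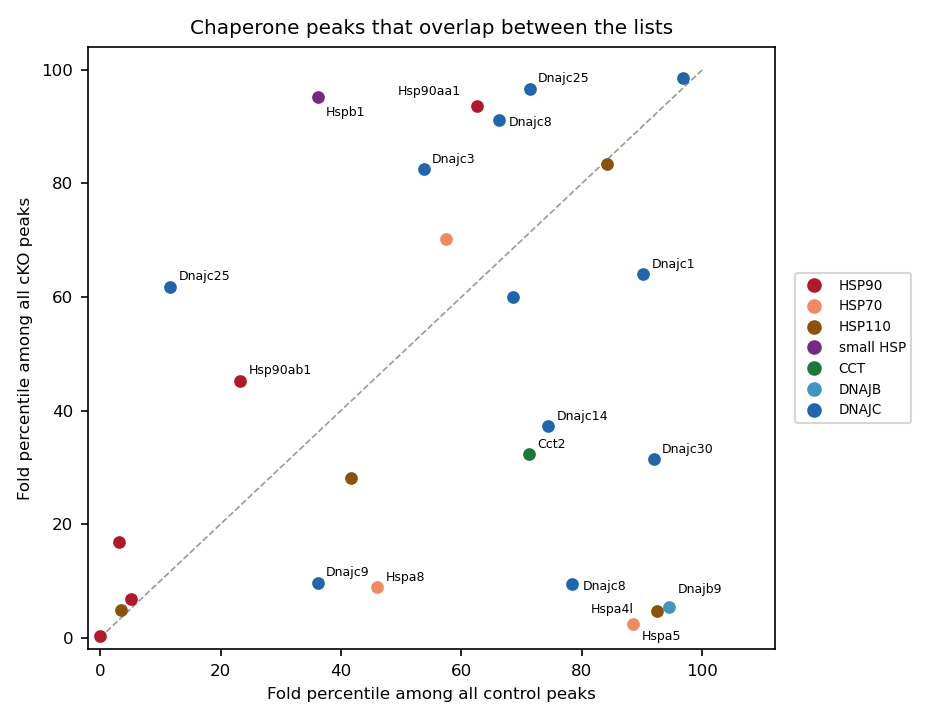
Fold percentile of the 26 overlapping chaperone peak pairs, in the control list (horizontal, percent of control peaks with a lower fold) and in the cKO list (vertical), coloured by family; the dashed line marks equal percentiles. All 5 HSP90 pairs lie above the line, and Hspa5, Hspa4l and Dnajb9 lie at its lower right.

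The other J-domain genes included the strongest chaperone peaks of both lists. Dnajb1 (HSP40), the main cytosolic partner of stress-induced HSP70, had the highest fold of the control chaperones at 368 (percentile 97.8), in coding sequence. Its only cKO peak, of fold 51.1, was also in coding sequence but lay 1362 bases further 5′. Dnajc2, a ribosome-associated partner also known as MPP11, had the highest fold of the cKO chaperones at 181 (percentile 98.5). This peak met the control Dnajc2 peak of fold 286 (percentile 96.8). Dnajb12, a membrane J-protein of the ER, had control peaks of fold 167 in the 3′ UTR and 157 at the stop codon and none in cKO. Gm46226 also lies at both of these places in RefSeq.

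Dnajc14 had control coding peaks of fold 144, 45.5 and 12.9, and the middle one met a cKO peak of fold 10.3. A second Dnajc14 cKO peak had fold 7.36. Dnajc30 had 3′ UTR peaks of fold 139 and 9.19 that overlapped, and in RefSeq Bud23 also reaches the wider control peak but not the cKO peak. Dnajc8, a splicing-associated member, had 3 control and 4 cKO peaks. The site over 4 exon blocks, where Gm24762 also lies in RefSeq, had folds of 32.1 and 63.3. Another site had folds of 55.6 and 4.91. The Dnajc8 peaks without a counterpart had folds of 7.05 in control and of 12.5 and 2.45 in cKO. Dnajc9, a histone-binding member, had overlapping peaks of fold 13.3 and 4.96.

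The peaks of Dnaja2, Dnaja4 and Dnajc13 lay apart in the lists, as did those of Dnajb1. Dnajc13 had a control peak of fold 8.45 and a cKO peak of fold 51.9, at 16579 bases from it with introns counted. At both peaks RefSeq also places Gm46130. Dnaja4 had 2 control peaks, of fold 26.6 and 7.65, and a cKO peak of fold 11.4, where Mir5710 also lies in RefSeq. Dnaja2 had a control peak of fold 7.45 in the 3′ UTR and a cKO peak of fold 14.5 in coding sequence. None of the 3 control peaks of the DNAJA genes was overlapped, where 33.7% of all control peaks were. In the control list alone were also Dnajc5, the synaptic vesicle protein CSP, with 3′ UTR peaks of fold 12.9 and 10.1, and Dnajb14 (11.7). The cKO list alone held 1 peak each of Dnajc21 (28.3), a ribosome biogenesis factor gene, Dnajc18 (23.9), Dnajc24 (15.8), which acts in diphthamide synthesis, Dnajc7 (15.1), Dnajc15 (14.0), a mitochondrial member, and Dnajc19-ps (8.83). Over all 9 genes in control alone the 11 peaks ranged in fold from 5.79 to 167 with a median of 12.9, and 5 had a p of 1e-10 or less. Over the 14 in cKO alone the 16 peaks ranged from 6.62 to 103 with a median of 14.2, and 2 had such a p. In the whole lists 44.6% of control peaks and 41.8% of cKO peaks had such a p.

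Small heat shock protein genes were divided between the lists, and 3 of 5 CCT genes with a peak were in the cKO list alone, a status held by 23.1% of all genes with a peak. Hspb1 (HSP27), which binds unfolding proteins and actin, had overlapping 3′ UTR peaks of fold 13.3 in control and 97.5 in cKO, at percentiles 36.1 and 95.2. Hspb6 had a cKO peak of fold 10.3 alone and Hspb8 a control peak of fold 5.79 alone. Of the CCT subunit genes, Cct2 was in both lists at one site (39.3 and 9.24), while Cct5 (29.2) had a peak in control only. Cct3 and Cct6a, both at 9.38, and Cct8, at 14.3 and 12.7, were those found in cKO cells only. Cct4 and Cct7 had no peak. Tcp1, a CCT subunit gene that the name rule does not reach and that is named here after its values were seen, had overlapping peaks of fold 2.98 and 2.96. Hspd1, the mitochondrial chaperonin HSP60, had 1 peak, in the 5′ UTR and of fold 19.1, which was listed for cKO only. Its partner Hspe1 had no peak.

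The share of chaperone peaks with more than 1 exon block lay above that of each whole list, while their share in coding sequence was near it. Coding sequence held 31 of 48 control peaks (64.6%, 49.5 to 77.8) and 32 of 55 cKO peaks (58.2%, 44.1 to 71.3), against 53.0% and 53.5% of the whole lists. The 3′ UTR held 9 control peaks (18.8%, 8.95 to 32.6) and 6 cKO peaks (10.9%, 4.11 to 22.2), against 31.7% and 23.9%, of which the first lies inside its interval and the second just outside. More than 1 exon block was present in 25 control peaks (52.1%, 37.2 to 66.7) and 35 cKO peaks (63.6%, 49.6 to 76.2), against 28.8% and 48.5%. Of these whole-list shares the 28.8% lies below its interval and the 48.5% just below. Among coding peaks alone these counts were 17 of 31 in control (54.8%, 36.0 to 72.7) and 24 of 32 in cKO (56.6 to 88.5), against 40.9% and 69.0% of all coding peaks. Both of the latter lie inside their intervals. With only peaks of p 1e-10 or less, the 3′ UTR share was 6.67% in control (31.1% of all such peaks) and 3.85% in cKO (19.9%). Median exonic length was 269 bases for control chaperone peaks and 210 for cKO ones, against 211 and 210 in the whole lists.

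**Figure D4:**
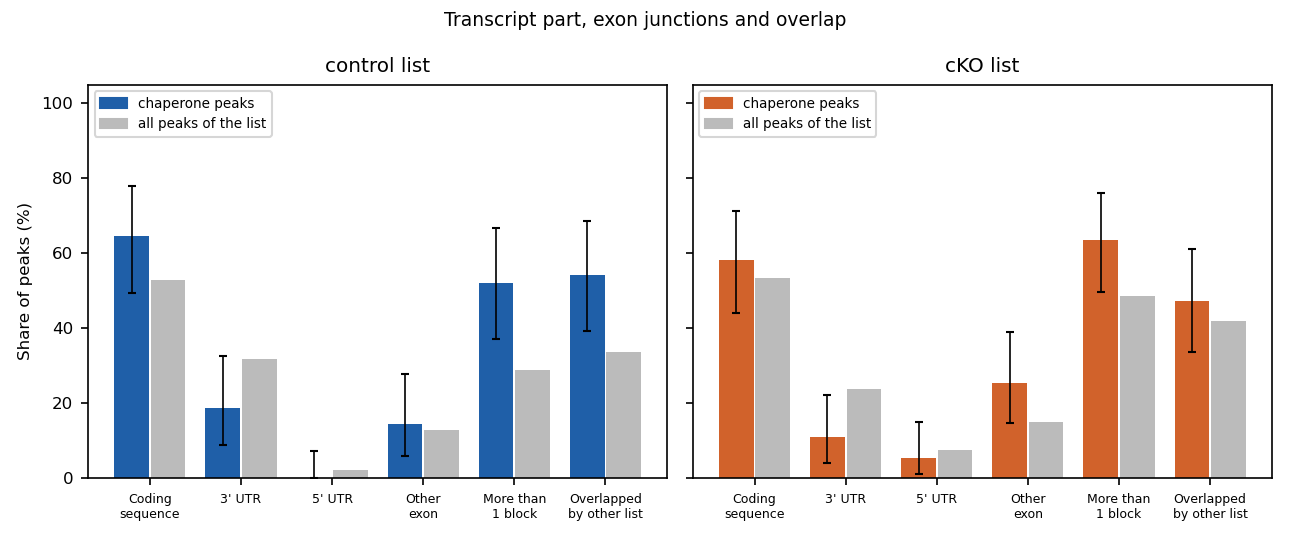
Share of peaks (percent) in each transcript part, with more than 1 exon block, and overlapped by a peak of the other list, for chaperones (coloured) and for the whole list (grey); bars on the chaperone shares are 95% Clopper-Pearson intervals. In both lists the chaperone share is lower for the 3′ UTR and higher for peaks of several blocks than that of the whole list.

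No control chaperone peak was in a 5′ UTR (0 of 48, interval up to 7.40%), against 3 of 55 in the cKO list (5.45%, 1.14 to 15.1). In the whole lists the shares were 2.32% and 7.56%. The 3 cKO peaks were those of Dnajb6 (fold 103, percentile 95.6), an anti-aggregation J-protein, Dnaja1 (73.9, percentile 92.9), a cytosolic HSP70 partner, and Hspd1. None was overlapped by a control peak, and these genes had no control peak at all. Dnaja1 had another cKO peak, of fold 6.62, in the 3′ UTR. At its 5′ UTR peak RefSeq also places Gm6297 and Mir207. The cKO peaks of Cct3, Dnajb1 and Dnajc15, listed as exon or coding sequence, also reached the promoter window of their own gene, and no control chaperone peak did so.

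The promoters of Dnajb6 and Hspd1, though not that of Dnaja1, held a heat shock element, the binding motif of heat shock factor 1. It was searched as GAANNTTCNNGAA or TTCNNGAANNTTC, which overlap in runs of alternating units, on both strands. The motif was in 198 of the 32851 windows (0.603%), or in 179 of 27025 genes (0.662%). Of the 67 chaperone genes with a window it was found in 4, namely Dnajb6, Hspd1, Hspe1 and Hsph1. The Dnajb6 and Hspd1 windows are shown because they hold a match and the cKO peaks of these genes lie at or near the transcript start. The cKO peaks of Dnaja1, Cct3, Dnajb1 and Dnajc15 also reach their own windows, where no match was found. Any link between such peaks and the motif was not tested. The Dnajb6 peak shares 72 bases with a promoter window, while the Hspd1 peak begins 45 bases after the start and shares 5. Hspd1 and Hspe1 are read in opposite directions from the same stretch. Capitals mark the match, at chr5:29735822-29735894 (plus) and chr1:55088029-55088106 (minus).
Dnajb6: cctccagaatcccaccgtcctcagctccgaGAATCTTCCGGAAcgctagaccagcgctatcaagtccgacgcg
Hspd1: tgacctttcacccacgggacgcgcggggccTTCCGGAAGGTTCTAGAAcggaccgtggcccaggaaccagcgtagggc

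Beyond the named chaperones, other genes of protein folding were compared in lists by role. Of 97 genes, 70 had a peak, beside 26.8% of all RefSeq coding genes. Of the 54 found in control cells 39 were also found in cKO cells (72.2%), beside 72.7% for the chaperones and 56.1% for all genes. Of the 70, 15 were listed for control only and 16 for cKO only, beside 33.7% and 23.1% of all genes with a peak. Of 21 ER folding genes with a peak, 13 were in both lists, 3 in control alone and 5 in cKO alone, beside 43.1%, 33.7% and 23.1% of all genes with a peak. Those in both included Sec62 (463 and 423) and Pdia4 (218 and 46.9). Calr, which encodes calreticulin, reached fold 7.35 in coding sequence in control and 223 in the 5′ UTR in cKO. Fkbp14 (19.7), Sdf2l1 (11.7) and P3h1 (6.04) were in control alone and Fkbp10 (19.5), Pdia6 and Ppib (both 11.8) in cKO alone. Serpinh1, the collagen chaperone HSP47, named here after its value was seen, had a 5′ UTR peak of fold 8 in cKO alone.

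Of 12 unfolded protein response genes with a peak, 6 were in both lists, 6 in control alone and 0 in cKO alone. Over all genes with a peak these shares were 43.1%, 33.7% and 23.1%. The 6 of 12 control genes also found in cKO were near the 56.1% of all genes. The ATF6-processing protease gene Mbtps1 (833), the eIF2α phosphatase subunit gene Ppp1r15a (GADD34, 62.3) and the ER stress sensor gene Eif2ak3 (PERK, 29.0) had peaks in control only. So did the other stress sensor genes, Ern1 (IRE1, 23.8) and Atf6 (16.9), both named after their values were seen. Xbp1, the factor spliced by IRE1, had best folds of 60.8 and 59.6, Ppp1r15b 433 and 16.2, and Sel1l 60.4 and 6.62, the last at separate sites.

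Of 22 HSP70 and HSP90 partner genes with a peak, 12 were in both lists, 5 in control alone and 5 in cKO alone, beside the same shares of 43.1%, 33.7% and 23.1% of all genes. The exchange factor gene Bag5 (254 and 16.9) and the HSP90 cochaperone gene Ptges3 (76.9 and 149) had overlapping peaks, and Nudcd3 (194 and 19.5) peaks apart. Bag4 (66.8), Ahsa2 (53.1) and Ttc4 (27.0) were in control alone. The cKO list alone held St13 (HIP, 70.2), Stip1 (HOP, which links HSP70 to HSP90, 37.9, with 4 peaks) and Bag6 (16.5). Prefoldin, which hands nascent chains to CCT, had Uri1, Pfdn1 and Vbp1 in both lists and Pfdn5 (13.5) and Pfdn4 (1.71) in cKO alone. In mitochondria, Timm44 (92.6 and 175), Htra2 (99.4 and 28.7) and Yme1l1 (28.3 and 22) were among 4 genes in both lists. Grpel2 (41.9) was in control alone, and Lonp1 (18.8), Spg7 (12.1) and Grpel1 (11.8) were among 4 genes in cKO alone. None of Hsf1, Hsf2, Hsf4 and Hsf5, which encode heat shock factors, had a peak, while their binding protein gene Hsbp1 did in both lists (25.4 and 19.9).

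**Figure D5:**
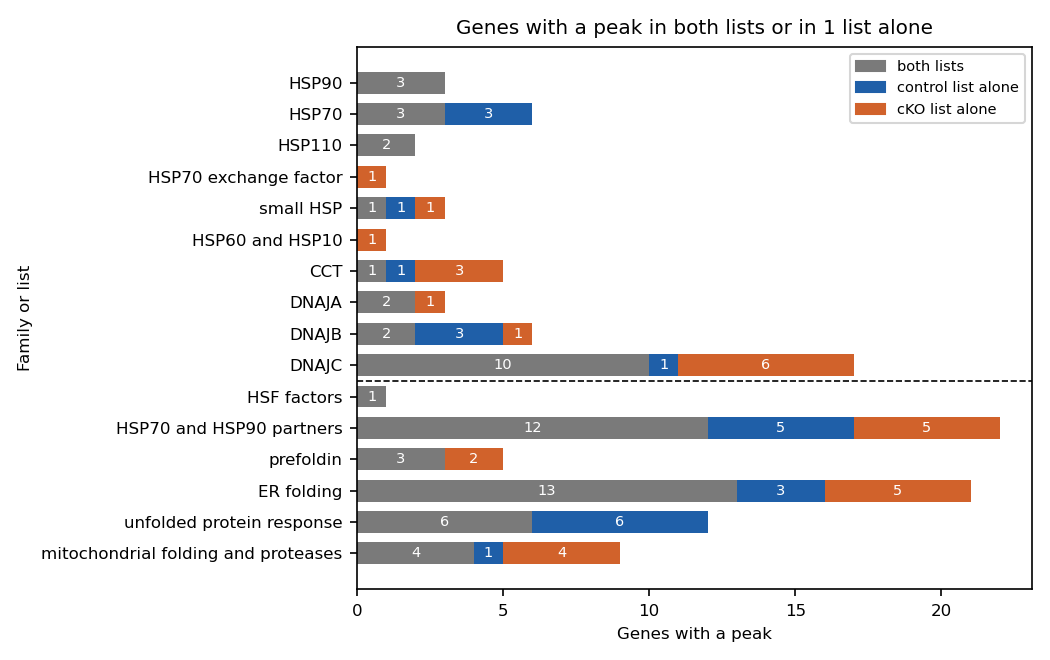
Number of genes with a peak in both lists (grey), in control alone (blue) or in cKO alone (orange), for the chaperone families above the dashed line and the other folding lists below it. HSP90 and HSP110 genes are all in both lists, and the unfolded protein response has 6 genes in control alone and none in cKO alone.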

How the data were processed

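Per the labels' protocols, each library began with 100 µg of total RNA, cut to fragments of 100 to 200 nucleotides, precipitated with an anti-m6A antibody or kept as input, and read as 150-bp paired ends. HISAT2, HOMER and mm10 (GRCm38) appear in the submitters' processing notes without roles. Neither the peak caller nor how replicates were combined is given in the sources used here. Per the file headers, the authors gave each peak exon blocks, a p-value, its log10 (a score here, since it runs far below the range of ordinary log values), the log10 of a false discovery rate (a score, not used), an annotation class and a fold enrichment (ratio). Depth is unknown. Computed here were overlaps of exon blocks, within-list fold percentiles, shares and intervals, and promoter motifs in RefSeq windows (Python 3.11.15, pandas 2.3.3, numpy 2.4.6, scipy 1.17.1, matplotlib 3.10.9). The overlap code was tested on simulated data. Genes were joined by symbol, and all 47 chaperone symbols were in RefSeq. Members, gene lists and motifs were chosen with earlier results of these data known. Every Hsp and Cct gene with a peak is named with its folds, as are Dnaj genes with a top-quarter fold, overlapping peaks or several peaks. Folding lists give up to 3 genes of highest fold per status.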

Additional observations from a re-analysis of the deposited data

How the results depend on the processing

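Across 14 results and 9 alternative settings, 58 of 66 recomputed values stayed within the 95% interval of the main value and 8 did not. With only peaks of fold 10 or more, the chaperone genes of the control list also in the cKO list were 46.4% and the overlapped control peaks 30.6%. Without the Dnaj genes, 73.7% of control peaks were overlapped (14 of 19). With only peaks of p 1e-10 or less, 65.4% of cKO peaks were overlapped, 3′ UTR peaks were 6.67% in control and 3.85% in cKO, cKO peaks of more than 1 block were 80.8%, and the median cKO fold percentile was 29.6. Requiring 50% of both peaks to be shared gave 41.7% of control and 36.4% of cKO chaperone peaks, beside 22% and 27.5% of all peaks. The causes were not tested. No paired analysis was possible because each list is 1 call per genotype with no value per replicate; for the same reason no replicate could be left out. Small families and unknown depth limit every count.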
